A study of Mus musculus with 12 samples.

Results

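The CXC chemokines are small secreted proteins that direct the movement of leukocytes, and 9 of their genes were examined here: Cxcl1, Cxcl2, Cxcl3, Cxcl5, Cxcl9, Cxcl10, Cxcl12, Cxcl14 and Cxcl16. They are 9 of 35865 genes in the deposited tables, chosen by name, and their reads and abundances were summed over all transcripts of each gene. RNA-Seq had been carried out on 12 tumours of the mouse mammary carcinoma line 4T1, grown under the skin of female BALB/c mice that were 6 to 8 weeks old and had received 100000 cells. Extracellular vesicles (EVs) of the mouse endothelial line MS-1 were given peritumourally from day 5, in doses of 3 µg at intervals of 2 days, until tumours were collected on day 21. The EVs had been electroporated with a mimic of miR-222-3p, of miR-142-5p or of miR-183-5p, or with the nematode miRNA cel-miR-67 (ctrl), and each of the 4 groups held 3 tumours. Hence every tumour, ctrl included, had received EVs, no group without EVs was analysed here, and nothing in the labels links a tumour number in one group with that number in another.

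ELR-positive ligands (Cxcl1, Cxcl2, Cxcl3 and Cxcl5 here) bind the receptor Cxcr2 and draw neutrophils into tissue. They are classical targets of NF-kB, the transcription factor that IL-1 and TNF activate. Cxcl9 and Cxcl10 are induced by interferons and attract T and NK cells through Cxcr3, whereas Cxcl12 retains cells at sites such as bone marrow and lymphoid stroma through Cxcr4. Cxcl14 is a homeostatic epithelial and stromal chemokine, and Cxcl16 is a membrane-bound ligand of Cxcr6 that enzymes such as Adam10 shed from the cell surface. In mammary carcinoma, ELR-positive ligands are known for drawing myeloid cells, and Cxcl9 and Cxcl10 for drawing lymphocytes.

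The mature miRNAs are shown because the mimics define the groups, and their seeds (bases 2 to 8, in capitals) decide which messages they can pair with. These are not the mimics themselves: the miR-222-3p mimic that the authors list is shorter at its 3′ end, with the same seed. The sequences come from RefSeq (GRCm38.p6), which lists miR-142-5p as miR-142a-5p on chromosome 11, miR-183-5p on chromosome 6 and miR-222-3p on chromosome X, and the 3 seeds differ from each other.
miR-142-5p: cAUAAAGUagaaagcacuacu
miR-183-5p: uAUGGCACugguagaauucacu
miR-222-3p: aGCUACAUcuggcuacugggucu

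The 3′ UTRs of 14 protein-coding transcripts of the 9 chemokines (GENCODE M21) were searched for the complement of each seed, and few held one. No transcript matched the miR-142-5p seed, which 11.2% of 44761 protein-coding transcripts with a 3′ UTR matched. For miR-183-5p, the match was in both coding transcripts of Cxcl10 and in no other member, against 6.72% of all transcripts. For miR-222-3p, a longer match, with an A after the seed match, was in 2 of the 3 coding transcripts of Cxcl12, against 7.16% of all transcripts for the shorter form. Both places are shown with the match in capitals, because they are the only matches among the members.
Cxcl10, miR-183-5p match: cttcaccatGTGCCATgcccaggctgc
Cxcl12, miR-222-3p match: cattttattATGTAGCAagatacatgg
Such a match is a stretch of letters and not a measured site. In miR-183-5p-EV tumours, Cxcl10 differed from ctrl by a log2 fold change of -0.32, with a 95% interval from -0.96 to 0.32. In miR-222-3p-EV tumours, Cxcl12 differed from ctrl by -0.20 on the log2 scale, with a 95% interval from -1.62 to 1.23. Neither differed beyond its error, and the Cxcl12 transcripts that hold the match averaged 0.81 and 0.55 TPM (an abundance per unit of transcript length, scaled to the same total in every library).

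Promoters are shown for the members that share a motif next to the start site, since the ELR-positive ligands varied together (described further on). Of the 9 genes, 7 had an entry in the RefSeq promoter table (GRCm38.p6, 250 bases before and 50 after the start), and Cxcl5 and Cxcl16 did not. The NF-kB-type motif GGAANTTCC, which reads the same on both strands, was in the promoters of Cxcl1, Cxcl2, Cxcl3 and Cxcl10 and in 0.928% of 32851 promoters. An interferon-response-type motif, GAAANNGAA on either strand, was in those of Cxcl9, Cxcl10 and Cxcl14 and in 8.56% of all promoters. The windows, chosen to show the matches, are 90 bases long and begin at base -120 for the first 3 genes and at base -220 for Cxcl10, with both motifs in capitals.
Cxcl1, chr5:90891125-90891214, plus strand: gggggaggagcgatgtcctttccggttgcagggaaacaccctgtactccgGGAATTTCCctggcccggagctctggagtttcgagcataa
Cxcl2, chr5:90903779-90903868, plus strand: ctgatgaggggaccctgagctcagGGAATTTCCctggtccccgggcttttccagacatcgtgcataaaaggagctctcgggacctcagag
Cxcl3, chr5:90785981-90786070, plus strand: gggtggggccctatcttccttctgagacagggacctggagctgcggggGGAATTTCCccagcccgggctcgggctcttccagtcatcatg
Cxcl10, chr5:92349020-92349109, minus strand: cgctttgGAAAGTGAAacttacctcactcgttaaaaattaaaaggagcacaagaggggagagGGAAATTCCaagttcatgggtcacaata
The first base of the NF-kB-type match lay at -70 in Cxcl1, -96 in Cxcl2, -72 in Cxcl3 and -158 in Cxcl10. The first base of the interferon-type match lay at -213 in Cxcl10, -175 in Cxcl9 and -172 in Cxcl14. In all, 6 forms were searched on both strands. A looser NF-kB form, which overlaps the one above, was in the same 4 promoters and in 5.56% of all. A longer interferon form was in Cxcl10 and Cxcl14 and in 3.44% of all, and the shorter one above was tried after this result was seen. The STAT-type motif TTCNNNGAA was in Cxcl14 only (8.30% of all), and TATAAA was in Cxcl3 and Cxcl9 (13.6% of all). None of the 6 forms was in the Cxcl12 promoter.

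The genes lie in few places of the genome (GRCm38). The 4 ELR-positive ligands form a cluster on chromosome 5, from Cxcl5 (chr5:90759360-90761624) over Cxcl3 (chr5:90786103-90789600) and Cxcl1 (chr5:90891241-90893115) to Cxcl2 (chr5:90903871-90905938). Cxcl9 (chr5:92321347-92328079) and Cxcl10 (chr5:92346638-92348889) are neighbours further along that chromosome, on the minus strand. Cxcl12 is on chromosome 6 (chr6:117168535-117181367), Cxcl14 on chromosome 13 (chr13:56288643-56296551) and Cxcl16 on chromosome 11 (chr11:70453983-70459984). Cxcl2 and Cxcl3 shared 80 stretches of 31 bases, which is 7.41% of those of the main Cxcl2 transcript and 8.11% of those of Cxcl3, so some of their reads could be assigned to either. No other pair of members shared such a stretch.

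The libraries held 20285968 to 27021401 estimated reads, and carcinoma keratins and Epcam summed to between 1217 and 1788 TPM in every tumour. The libraries formed 2 sets with no counterpart in the labels: reads of the mitochondrial pseudogene Gm28661 made up 7.13% to 41.8% of those of Gm28661 and mt-Co2 in 8 libraries, and 0.324% at most in the other 4, which were the miR-222-3p-EV tumours and miR-183-5p-EV tumour 3. Set and treatment cannot be told apart for miR-222-3p-EVs, and fold changes of the chemokines with miR-183-5p-EVs are therefore also given without tumour 3. That tumour also had 169 TPM of skeletal muscle markers, against 1.57 TPM at most elsewhere. In bulk tumours, fewer cells of a type and less RNA per cell cannot be told apart. Where nothing in the labels says that tumours came from separate experiments, p-values measure only the spread between these tumours.

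Levels were compared between genes as TPM. Cxcl1 averaged 163 ± 83.7 TPM (SD, n = 12), Cxcl14 160 ± 84.7, Cxcl16 139 ± 17.6, Cxcl10 128 ± 47.7, Cxcl9 113 ± 41.5 and Cxcl5 82.6 ± 52.4 TPM. The order among these 6 genes was not fixed, since each exceeded the next in only 6 to 9 of 12 tumours. Below them came Cxcl2 with 18.5 ± 10.9 TPM, Cxcl3 with 7.13 ± 4.77 TPM and Cxcl12 with 3.72 ± 3.57 TPM. Cxcl5 exceeded Cxcl2, and Cxcl2 exceeded Cxcl3, in 12 of 12 tumours, and Cxcl3 exceeded Cxcl12 in 11 of 12. In TPM, the 4 ELR-positive ligands thus spanned more than an order of magnitude.

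This ranking depended on which transcripts were counted. For Cxcl16, a transcript annotated as a target of nonsense-mediated decay held 58.4% of the gene's TPM on average, and its coding transcript held 37.2%. For Cxcl9, a short transcript with a retained intron held 28.8%, ranging from 12.2% to 40.9% between tumours. Cxcl2 had 74.0% of its TPM in the main coding transcript, whereas Cxcl1, Cxcl3, Cxcl5, Cxcl10 and Cxcl14 had over 90% there. With coding transcripts alone, Cxcl16 averaged 51.8 TPM and moved down by 3 places, and only 3 of the 9 genes kept their rank.

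Cxcl1 (neutrophil attractant, ligand of Cxcr2) was at 148, 89.1 and 200 TPM in ctrl tumours 1 to 3 and at 209, 78.0 and 95.6 in miR-142-5p-EV tumours. In miR-183-5p-EV tumours it was at 370, 211 and 126 TPM, and in miR-222-3p-EV tumours at 134, 83.9 and 215. The highest value was that of miR-183-5p-EV tumour 1, and all groups overlapped. Cxcl5, made largely by epithelial cells and platelets, ran closely alongside it. It was at 81.4, 31.2 and 116 TPM in ctrl, and at 87.8, 41.7 and 38.6 with miR-142-5p-EVs. With miR-183-5p-EVs it was at 212, 79.2 and 57.5 TPM, and with miR-222-3p-EVs at 81.7, 30.2 and 133. Again 1 tumour stood high and the groups overlapped.

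Cxcl2 (MIP-2, a neutrophil attractant made by macrophages and neutrophils) was at 10.5, 12.7 and 20.8 TPM in ctrl tumours and at 20.4, 8.68 and 10.2 in miR-142-5p-EV tumours. It was at 43.8, 15.9 and 34.1 TPM in miR-183-5p-EV tumours and at 11.7, 10.3 and 23.2 in miR-222-3p-EV tumours. Thus 2 of the 3 miR-183-5p-EV tumours exceeded every tumour of the other groups, and tumour 2 lay within their range. Cxcl3, its close relative, was at 6.43, 3.55 and 7.27 TPM in ctrl and at 8.53, 2.41 and 3.72 with miR-142-5p-EVs. It was at 19.8, 7.63 and 9.30 TPM with miR-183-5p-EVs and at 2.76, 4.20 and 9.95 with miR-222-3p-EVs. All miR-183-5p-EV tumours were above all ctrl tumours for Cxcl3, by a narrow margin for tumour 2. The share of all genes that separate in this way was not counted, so a lack of overlap is description only, here and below.

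**Figure D1:**
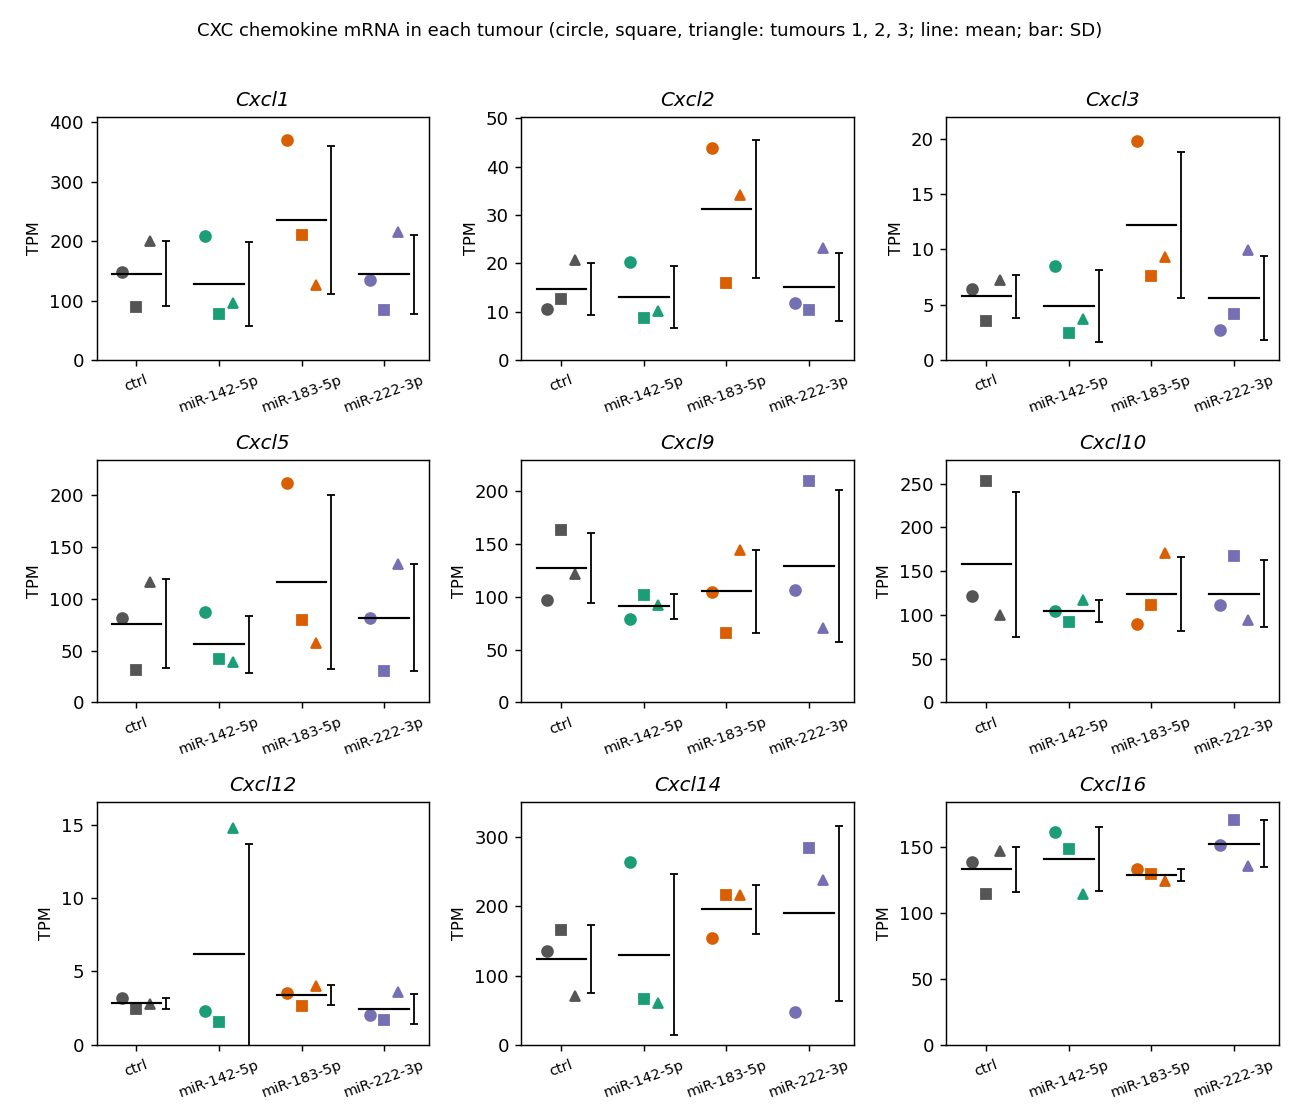
TPM (linear axes from 0) of the 9 CXC chemokines in each of the 12 tumours by group, with a line at the group mean and a bar for 1 SD either side, which stops at the axis for Cxcl12 with miR-142-5p-EVs. Cxcl2 and Cxcl3 were highest in miR-183-5p-EV tumour 1 (43.8 and 19.8 TPM), Cxcl12 in miR-142-5p-EV tumour 3 (14.8 TPM), and Cxcl16 had the narrowest spread relative to its mean.

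Each treatment was compared with ctrl to ask whether loaded EVs were associated with other chemokine levels in the tumour. By DESeq2 across 15426 genes, 0 of the 9 members were called (adjusted p under 0.05) with miR-142-5p-EVs, 0 with miR-183-5p-EVs and 0 with miR-222-3p-EVs. Over all genes tested the called shares were 0.00648%, 0% and 0.0259%. With so few genes called, a count of 0 cannot tell the members from other genes. The median log2 fold change of the members was -0.15, 0.62 and 0.02, against -0.00, -0.01 and -0.01 for all genes. Of the 9 members, 3, 6 and 5 were above ctrl. At an unadjusted p under 0.05 the members numbered 0, 1 and 0, where 3.58%, 3.22% and 2.31% of all genes passed. edgeR likewise called 0 members in each. The member at an unadjusted p under 0.05 was Cxcl2 with miR-183-5p-EVs.

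For the ELR-positive ligands with miR-183-5p-EVs, the fold changes all had 1 direction but wide intervals. For Cxcl2 the log2 fold change against ctrl was 1.13 ± 0.44 (SE), which is 2.18-fold, with a 95% interval from 0.27 to 1.98. Its unadjusted DESeq2 p was 0.010 and its adjusted p 0.9999, so it was not called. For Cxcl3 the value was 1.10 ± 0.57, with an interval from -0.01 to 2.21. For Cxcl1 it was 0.71 ± 0.60 and for Cxcl5 0.62 ± 0.73, and both intervals held 0. Without tumour 3 of this group, which is of the other library set, the values were 1.05 for Cxcl2, 1.26 for Cxcl3, 1.01 for Cxcl1 and 0.95 for Cxcl5. Without tumour 1 they were 0.82, 0.59, 0.25 and -0.12 in that order, so the direction for Cxcl5 rested on that tumour. For the other members against ctrl, the values with all tumours and without tumour 3 were -0.25 and -0.55 for Cxcl9, -0.32 and -0.63 for Cxcl10, 0.27 and 0.14 for Cxcl12, and 0.67 and 0.59 for Cxcl14. Cxcl16 was at -0.03 with all tumours and at -0.00049 without it.

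Markers of neutrophils and macrophages were read beside these values, and 0 of either list were called with miR-183-5p-EVs by DESeq2 or edgeR. The 7 neutrophil markers summed to between 1884 and 3048 TPM in miR-183-5p-EV tumours, against 1053 to 2017 in ctrl, 1022 to 1663 with miR-142-5p-EVs and 884 to 2014 with miR-222-3p-EVs. These sums mostly follow S100a8 and S100a9, which averaged 748 and 1504 TPM with miR-183-5p-EVs, with Retnlg next at 99.3. The fold change of the neutrophil markers against ctrl with miR-183-5p-EVs was above 0 for 7 of 7. Its median was 0.37 on the log2 scale, against -0.01 for all genes. S100a8 and S100a9, the calprotectin subunits abundant in neutrophils, had log2 fold changes of 0.67 and 0.68, and of 0.70 each without miR-183-5p-EV tumour 3, where Csf3r turned to -0.01. They were the 2 neutrophil markers with an unadjusted p under 0.05, where 3.22% of all genes passed, and the summed levels overlapped with ctrl. The 6 macrophage markers summed to between 899 and 1336 TPM in this group, against 1358 to 1700 in ctrl, and 6 of 6 had a fold change below 0, 2 of them at an unadjusted p under 0.05. C1qa and C1qb, at 577 and 394 TPM on average in this group, made up most of that sum, with Cd68 next at 103. No marker of either list was at 0 in all tumours, and the part of these cells in the chemokine values was not tested.

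The inducers were read in the same fit. Of 12 genes on the NF-kB side, 11 were tested, 0 were called with any treatment, and with miR-183-5p-EVs 7 were above and 4 below ctrl, 2 of the 11 at an unadjusted p under 0.05, where 3.22% of all genes passed. Il1b, a cytokine that induces the ELR-positive ligands, averaged 5173 ± 1467 (SD, n = 3) normalised counts with miR-183-5p-EVs and 3465 ± 630 in ctrl, a log2 fold change of 0.58. Tnf, the other inducer named above, averaged lower with miR-183-5p-EVs, at 2.71 ± 1.17 TPM (SD, n = 3) against 3.58 ± 0.88 in ctrl. Il6 averaged 92.8 ± 43.2 against 38.5 ± 5.13 normalised counts, a log2 fold change of 1.27. Its groups did not overlap, the only 1 of the 11 genes tested, and the share of all genes without overlap was not counted. Nfkb2, an NF-kB subunit, had a log2 fold change of -0.30 with miR-222-3p-EVs, where the group is also a library set. Il1b, Il6 and Nfkb2 had unadjusted p-values of 0.016, 0.0056 and 0.018 by DESeq2, and none was called.

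The interferon-induced ligands averaged lowest in the miR-142-5p-EV group. Cxcl9 was at 97.1, 163 and 122 TPM in ctrl tumours and at 78.8, 102 and 91.8 with miR-142-5p-EVs. It was at 105, 66.2 and 144 TPM with miR-183-5p-EVs and at 106, 209 and 70.8 with miR-222-3p-EVs. Cxcl10 (IP-10) was at 122, 253 and 99.4 TPM in ctrl and at 105, 91.7 and 117 with miR-142-5p-EVs. It was at 89.8, 111 and 171 TPM with miR-183-5p-EVs and at 111, 168 and 94.2 with miR-222-3p-EVs. The 3 miR-142-5p-EV tumours were close to each other in both genes, and ctrl tumour 2 was the highest for Cxcl10. For Cxcl9 these 3 tumours and ctrl overlapped in TPM but not in normalised counts.

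With miR-142-5p-EVs the log2 fold change was -0.47 ± 0.34 (SE) for Cxcl9 and -0.58 ± 0.33 for Cxcl10, with 95% intervals from -1.13 to 0.19 and from -1.23 to 0.06. With 1 tumour left out at a time, Cxcl9 ranged from -0.58 to -0.27 and Cxcl10 from -0.85 to -0.11, and the values nearest to 0 were those without ctrl tumour 2. Cxcl11, a further Cxcr3 ligand, had -0.84 ± 0.39, with an unadjusted DESeq2 p of 0.032, and was not called. Without ctrl tumour 2 its value was -0.45. It was at 32.7, 63.3 and 30.3 TPM in ctrl tumours and at 29.0, 19.5 and 20.9 with miR-142-5p-EVs, so ctrl tumour 2 was again the highest of these. Of 10 genes on the interferon side, including Ifng and Irf1, 0 were called and 0 had an unadjusted p under 0.05 with any treatment, and 8 were below and 2 above ctrl with miR-142-5p-EVs. Their median log2 fold change was -0.23, against -0.00 for all genes. With miR-222-3p-EVs 8 of 10 were also below ctrl, with a median of -0.19 against -0.01.

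**Figure D2:**
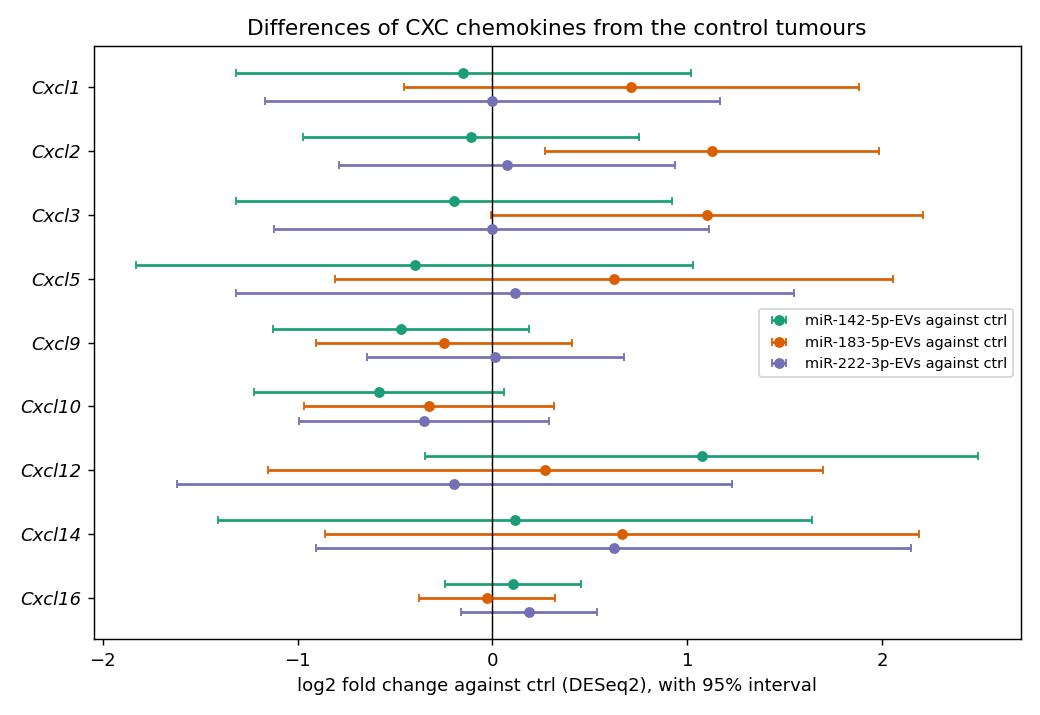
Log2 fold change against ctrl (x axis) with its 95% interval for each chemokine and each of the 3 treatments, from the fit over all genes. Of the 27 intervals, only that of Cxcl2 with miR-183-5p-EVs (0.27 to 1.98) did not hold 0.

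Of the homeostatic ligands, Cxcl12 was at 3.22, 2.48 and 2.77 TPM in ctrl tumours and at 2.28, 1.59 and 14.8 in miR-142-5p-EV tumours. It was at 3.55, 2.63 and 3.98 TPM with miR-183-5p-EVs and at 2.04, 1.73 and 3.62 with miR-222-3p-EVs. The value of miR-142-5p-EV tumour 3 was far above all others, and 12.0 TPM of it came from 1 transcript, Cxcl12-202. The log2 fold change with miR-142-5p-EVs was 1.07 ± 0.72 (SE) with this tumour and -0.49 without it, so its direction rested on 1 library.

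Lymphoid genes were also high in that tumour. Cxcl13, which attracts B cells into follicles, had 626 reads there and between 0 and 4 in the other 11 tumours, so that it did not pass the count filter. Its receptor Cxcr5 had 510 reads there and between 3 and 20 elsewhere. Ackr1, the atypical receptor of venular endothelium, had 22 reads there and 9 at most elsewhere. The 6 T and NK markers summed to 181 TPM in that tumour, to 97.7 and 140 in the other miR-142-5p-EV tumours and to between 77.4 and 132 in ctrl. With miR-142-5p-EVs 6 of the 6 were above ctrl, with a median log2 fold change of 0.62 against -0.00 for all genes. By DESeq2 0 were called, and 2 had an unadjusted p under 0.05, where 3.58% of all genes passed. Against ctrl, the log2 fold change of Cd4 was 1.81 with and 0.28 without this tumour, and that of Cd3e 1.05 with and 0.09 without it. For Cd4 and Cd3e, as for Cxcl12, the difference between the groups rested mainly on 1 tumour. In the summed T and NK markers miR-142-5p-EV tumour 2 also lay above every ctrl tumour. The origin of the lymphoid RNA was not tested.

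Cxcl14 was at 136, 166 and 70.9 TPM in ctrl tumours and at 264, 66.8 and 59.9 with miR-142-5p-EVs. It was at 154, 216 and 216 TPM with miR-183-5p-EVs and at 46.9, 285 and 238 with miR-222-3p-EVs. High and low tumours were found in 2 of the treated groups, and the log2 fold changes against ctrl of 0.12, 0.67 and 0.62 had an SE of 0.78 each. Of the 5 fibroblast markers, 4 were above and 1 below ctrl with miR-183-5p-EVs, 5 were above with miR-222-3p-EVs, 2 were above and 3 below with miR-142-5p-EVs, and 0 were called. They summed to between 579 and 767 TPM with miR-183-5p-EVs, 272 and 576 in ctrl, 181 and 534 with miR-142-5p-EVs, and 250 and 926 with miR-222-3p-EVs. Col1a1 and Col1a2 made up most of these sums, averaging 287 and 317 TPM with miR-183-5p-EVs, with Dcn next at 23.0. The part of fibroblasts in the Cxcl14 values was not tested.

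Cxcl16 was at 139, 114 and 147 TPM in ctrl and at 161, 148 and 114 with miR-142-5p-EVs. It was at 133, 130 and 124 TPM with miR-183-5p-EVs and at 152, 171 and 136 with miR-222-3p-EVs. It was the steadiest member, and its intervals were also the narrowest. Its log2 fold changes against ctrl lay between -0.03 and 0.19, with an SE of 0.18, and the intervals extended at most to -0.38 and 0.54. Of the 5 processing enzymes, which include the Cxcl16 sheddases Adam10 and Adam17, 0 were called and 0 had an unadjusted p under 0.05 against ctrl with any treatment. With miR-183-5p-EVs against miR-142-5p-EVs and against miR-222-3p-EVs, 1 of 5 was higher at an unadjusted DESeq2 p under 0.05, and 0 were called. Of all genes, 7.95% and 3.25% had such a p. Between miR-183-5p-EVs and the miR-222-3p-EV group Cxcl16 did not overlap, with a log2 fold change of -0.21 and an interval from -0.56 to 0.13, and it was at -0.19 without miR-183-5p-EV tumour 3.

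The treatments were then compared with each other. By DESeq2, 0 of 9 members were called between miR-183-5p-EVs and miR-142-5p-EVs, 0 when miR-222-3p-EVs were set against miR-183-5p-EVs, and 0 when they were set against miR-142-5p-EVs. The shares of all genes called were 0.0519%, 0.0324% and 0.0389%. At an unadjusted p under 0.05 there were 2, 2 and 0 members, against 7.95%, 3.25% and 3.63% of all genes. edgeR called 0 members in each of these contrasts too. These contrasts share samples with those against ctrl and are not independent of them.

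Cxcl2 and Cxcl3 were the 2 members between miR-183-5p-EVs and miR-142-5p-EVs. Their log2 fold changes were 1.23 ± 0.44 (SE) and 1.30 ± 0.57, with adjusted p-values of 0.284 and 0.497 by DESeq2. Cxcl1 had 0.86 ± 0.60 and Cxcl5 1.02 ± 0.73 in this contrast. Without miR-183-5p-EV tumour 3 the values were 1.16 for Cxcl2, 1.46 for Cxcl3, 1.16 for Cxcl1 and 1.35 for Cxcl5. When miR-142-5p-EV tumour 1 was left out, Cxcl2 (1.78, adjusted p = 0.00462 by DESeq2) and Cxcl3 (2.06, adjusted p = 0.0184) were called, as were 416 of 14562 genes, S100a8, S100a9 and Il1b among them. With each of the other tumours left out in turn, 0 members were called. Beside them, 7 of 7 neutrophil markers were above 0 and 6 of 6 macrophage markers below 0 in this contrast, with medians of 0.93 and -0.53 on the log2 scale. Of the 11 NF-kB side genes, 8 were above and 3 below 0, with a median of 0.28, and Il1b was at 0.68. With all tumours 0 genes of these 3 lists were called.

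Against miR-222-3p-EVs, the log2 fold change with miR-183-5p-EVs was 1.05 ± 0.44 (SE) for Cxcl2 and 1.11 ± 0.56 for Cxcl3, with adjusted p-values of 0.999 each by DESeq2. The values were 0.71 for Cxcl1 and 0.51 for Cxcl5. Without miR-183-5p-EV tumour 3, which shares the library set of the miR-222-3p-EV tumours, the remaining contrast is between the sets as well, and Cxcl2 and Cxcl3 were at 0.98 and 1.27, and Cxcl1 and Cxcl5 at 1.01 and 0.83. Between miR-142-5p-EVs and the miR-222-3p-EV group, the largest difference was that of Cxcl12, at 1.27 with all tumours and -0.29 without miR-142-5p-EV tumour 3.

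The receptors and the remaining ligands were taken as a further list of 14 genes, of which 10 passed the count filter, and 0 were called in any of the 6 contrasts by DESeq2 or edgeR, with 0 to 3 of them at an unadjusted p under 0.05 by DESeq2. The 3 were between miR-183-5p-EVs and miR-142-5p-EVs, where 7.95% of all genes passed. Cxcr4 averaged 31.9 TPM over the 12 tumours, Ackr3 (a scavenger of Cxcl12) 18.2, Cxcr3 13.3, Cxcr2 9.01 and Cxcr6 6.32 TPM. Cxcr1 and Cxcr5 averaged 0.96 and 1.62 TPM, the latter because of 1 tumour. Among ligands, Pf4 (platelet factor 4) averaged 81.2 TPM, Cxcl11 35.3 and Ppbp 1.51 TPM, and Cxcl15 and Cxcl17 had 6 reads at most. Ackr3 was at 30.5, 18.5 and 21.1 TPM with miR-183-5p-EVs and at 16.8, 11.1 and 13.0 with miR-142-5p-EVs, without overlap. Its log2 fold change between these groups was 0.77, with an adjusted DESeq2 p of 0.402. Cxcr6, the receptor of Cxcl16, also did not overlap in TPM between miR-142-5p-EVs (6.27, 8.24 and 7.96) and ctrl (5.83, 3.91 and 6.03). In that contrast 0 of the 7 receptors tested had an unadjusted DESeq2 p under 0.05. Cxcr2, the receptor of the ELR-positive ligands, had log2 fold changes against ctrl of 0.19 with miR-183-5p-EVs, -0.22 with miR-142-5p-EVs and -0.18 in the miR-222-3p-EV group.

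**Figure D3:**
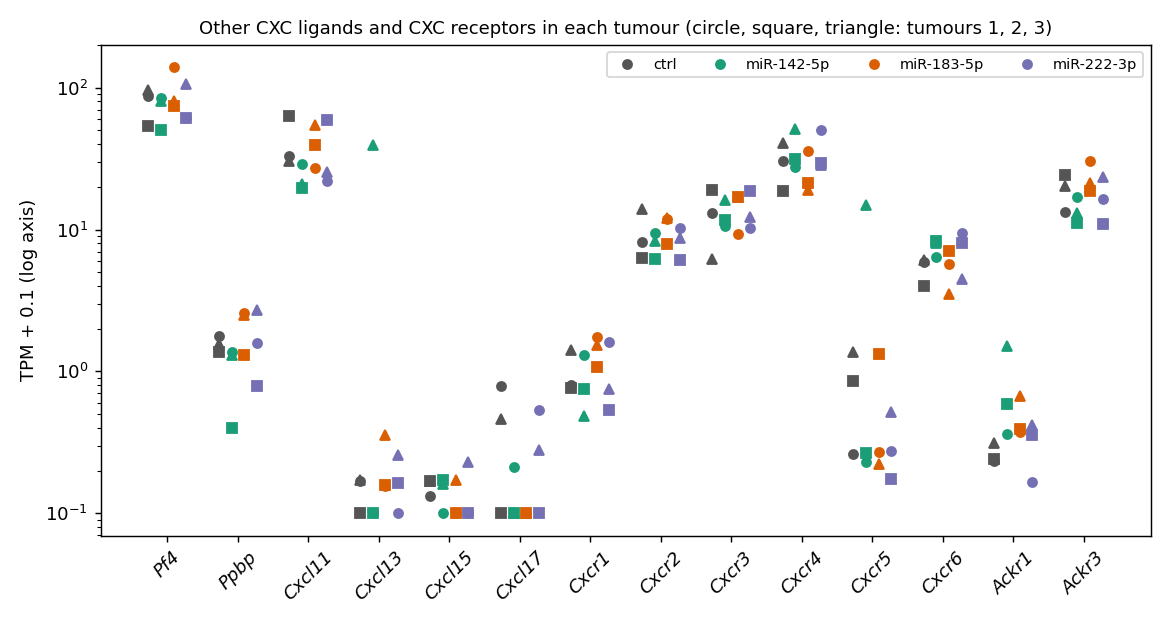
TPM + 0.1 (log axis) of the remaining CXC ligands and of the CXC receptors in each tumour, coloured by group. Cxcl13 (39.1 TPM) and Cxcr5 (14.8 TPM) stand out in miR-142-5p-EV tumour 3, while Cxcr2, Cxcr3, Cxcr4 and Cxcr6 overlap across most groups.

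The spread between tumours set what these contrasts could show. DESeq2's dispersion gave a coefficient of variation between tumours of 66.0% for Cxcl14, 61.9% for Cxcl5, 61.0% for Cxcl12, 50.5% for Cxcl1, 47.0% for Cxcl3 and 36.7% for Cxcl2. It was 28.4% for Cxcl9, 27.7% for Cxcl10 and 15.0% for Cxcl16, and the median over all tested genes was 16.4%. Cxcl14 thus lay at the 96.8th percentile of 15473 genes, Cxcl5 at the 95.7th and Cxcl16 at the 43.4th. Between the lowest and highest tumour, Cxcl12 spanned 9.31-fold, Cxcl3 8.20-fold, Cxcl5 7.03-fold, Cxcl14 6.07-fold, Cxcl2 5.05-fold and Cxcl1 4.74-fold in TPM. Cxcl9, Cxcl10 and Cxcl16 spanned 3.16-fold, 2.82-fold and 1.5-fold.

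To see which chemokines varied together, the 36 pairs were correlated over the 12 tumours on log2(normalised count + 1), with two-sided permutation tests adjusted over the pairs. All 6 pairs of ELR-positive ligands had Pearson r between 0.71 and 0.95, and 5 of the 36 pairs, all of this class, had an adjusted p under 0.05. Cxcl1 and Cxcl5 had r = 0.95 (permutation p = 1e-05, the smallest that 100000 resamples can give, adjusted p = 0.00036) and Spearman's rho = 0.92 (permutation p = 8e-05, adjusted p = 0.00288). Cxcl2 and Cxcl3, which share part of their sequence, had r = 0.90 (permutation p = 5e-05, adjusted p = 0.0009) and rho = 0.89 (permutation p = 0.00029, adjusted p = 0.00522). Cxcl1 and Cxcl3 had r = 0.88 (permutation p = 0.00038, adjusted p = 0.00456) and rho = 0.86 (permutation p = 0.00056, adjusted p = 0.00672). Without the 2 tumours farthest from the median of the first gene, r was 0.93, 0.86 and 0.77 for these pairs, with adjusted permutation p-values of 0.00648, 0.0499 and 0.133.

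Of the other pairs of ELR-positive ligands, 2 had lower r without those tumours and 1 did not. Cxcl1 and Cxcl2 had r = 0.77 (permutation p = 0.00317, adjusted p = 0.0233) and rho = 0.83 (permutation p = 0.00156, adjusted p = 0.014), and r = 0.59 without them (adjusted p = 0.277). Cxcl3 and Cxcl5 had r = 0.78 (permutation p = 0.00324, adjusted p = 0.0233) and rho = 0.70 (permutation p = 0.014, adjusted p = 0.0838), and r = 0.65 without them (adjusted p = 0.201). Hence Cxcl1 with Cxcl3, Cxcl1 with Cxcl2 and Cxcl3 with Cxcl5 did not pass without miR-142-5p-EV tumour 2 and miR-183-5p-EV tumour 1. Leaving out the farthest tumours also cuts the range and the number of tumours, so this cannot show that the calls rested on them. Cxcl2 and Cxcl5 had r = 0.71 (permutation p = 0.00997, adjusted p = 0.0598) and rho = 0.71 (permutation p = 0.0135, adjusted p = 0.0838), and r = 0.78 without miR-183-5p-EV tumours 1 and 3 (adjusted p = 0.123). Within the 8 libraries of the larger set, the 6 pairs had r between 0.86 and 0.98, each with an adjusted p under 0.05 by exact permutation. Centred on the group means, they had r between 0.68 and 0.95, and 0 pairs passed the adjusted test with permutation inside groups. With 3 tumours a group such permutations have few orderings, which limits this test, but a pair could still have passed it. Cxcl1 and Cxcl5, with r = 0.95 after centring, had a permutation p of 0.00154 and an adjusted p of 0.0556.

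The interferon-induced pair was looser. Cxcl9 and Cxcl10 had r = 0.69 (permutation p = 0.0138, adjusted p = 0.0712) and rho = 0.41 (permutation p = 0.186, adjusted p = 0.419), and r = 0.40 without ctrl tumour 2 and miR-222-3p-EV tumour 2. All 8 pairs of an ELR-positive with an interferon-induced ligand had r below 0, from -0.64 to -0.13, and none passed the adjusted test. Of these, Cxcl5 and Cxcl10 had r = -0.64 (permutation p = 0.0251, adjusted p = 0.1) and rho = -0.59 (permutation p = 0.0457, adjusted p = 0.206), and r = -0.53 without the 2 farthest tumours.

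**Figure D4:**
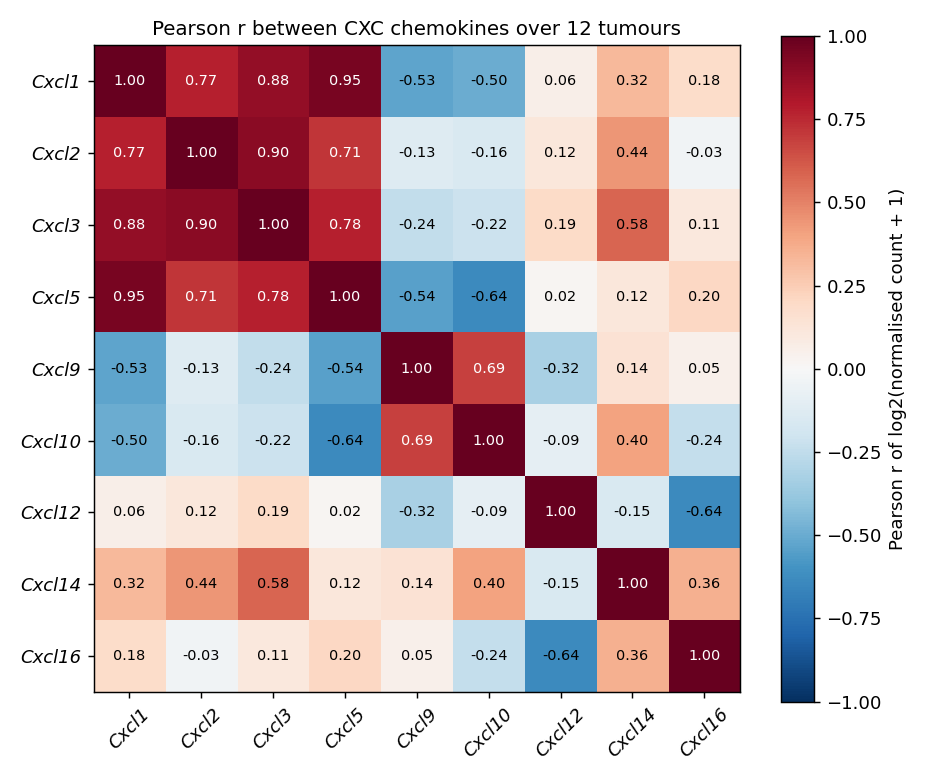
Pearson r of log2(normalised count + 1) for each pair of chemokines over the 12 tumours, from blue (-1) over white (0) to red (1). The 6 pairs of ELR-positive ligands form the red block (0.71 to 0.95), and their 8 pairs with Cxcl9 and Cxcl10 are blue (-0.64 to -0.13).

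In summed TPM, the 4 ELR-positive ligands ranged from 129 in miR-222-3p-EV tumour 2 to 646 in miR-183-5p-EV tumour 1. They made up from 13.3% to 57.1% of the TPM of the 9 members in these tumours, which also held the lowest and highest shares. Cxcl9 and Cxcl10 together ranged from 165 TPM in miR-222-3p-EV tumour 3 to 416 in ctrl tumour 2. The ratio of ELR-positive to interferon-induced ligands was lowest in ctrl tumour 2 and miR-222-3p-EV tumour 2 (0.328 and 0.341). It was highest in miR-183-5p-EV tumour 1 and miR-222-3p-EV tumour 3 (3.32 and 2.31). Tumours of the miR-222-3p-EV group thus lay near both ends.

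**Figure D5:**
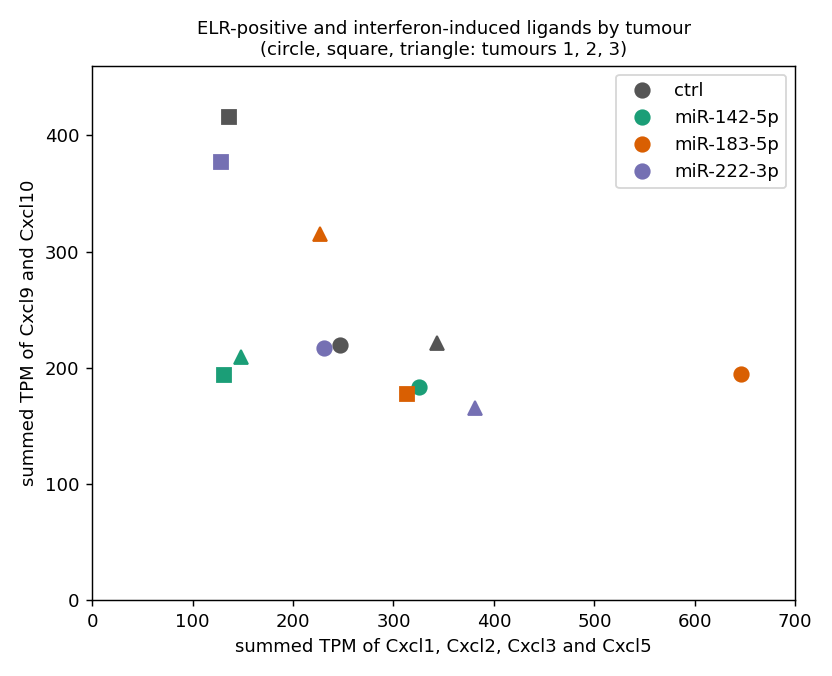
Summed TPM of Cxcl1, Cxcl2, Cxcl3 and Cxcl5 (x axis) against that of Cxcl9 and Cxcl10 (y axis) in each tumour, on linear axes from 0. The point farthest to the right is miR-183-5p-EV tumour 1 (646 TPM), and the highest is ctrl tumour 2 (416 TPM).

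Finally, for each member the 3 genes whose levels were most like it over the 12 tumours were sought among 11327 other protein-coding genes with a mean normalised count of at least 100, as a description with no test. The gene most like Cxcl1 was Nfkbia, the NF-kB inhibitor that NF-kB itself induces (r = 0.97), followed by Cxcl5 (0.95) and Hilpda (0.91), a hypoxia-induced lipid droplet protein. For Cxcl2 these were G0s2 (0.95), Zc3h12a (0.92), an RNase that degrades cytokine messages, and Rnf11 (0.91). For Cxcl3 they were Osm (0.94), Csf3 (0.93), which encodes the neutrophil growth factor G-CSF, and Pf4 (0.92). For Cxcl5 they were Cxcl1 and the stefin family genes Gm5483 and BC100530 (both 0.94), whose reads may be split between near-identical copies. Without the 2 tumours farthest from each member's median, r for these genes was between 0.79 and 0.94.

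For Cxcl10 the most similar genes were Rnf213 (r = 0.93), Batf2 (0.93) and Gcat (0.92), of which the first pair are induced by interferon. For Cxcl9 they were Tm7sf2 (0.91), Abce1 (0.87) and Fam149b (0.84), with r of 0.85, 0.73 and 0.62 without ctrl tumour 2 and miR-222-3p-EV tumour 2. Cxcl14 went with Fxyd6 (0.97), Olfml3 (0.97), an extracellular matrix protein, and Tmprss6 (0.96). Cxcl16 went with Tmem176b (0.91), Sptan1 (0.90) and Itgb5 (0.90). Without the 2 farthest tumours, r was 0.84 to 0.93 for the genes named with Cxcl10, 0.95 to 0.97 for Cxcl14 and 0.78 to 0.86 for Cxcl16. For Cxcl12, Rapgef1 (0.93), Neil1 (0.88) and Cenps (0.86) came first, and without miR-142-5p-EV tumours 2 and 3 their r was 0.80, 0.57 and 0.53.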

How the data were processed

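Polyadenylated RNA of 12 4T1 tumours (4 groups of 3, taken from the labels) was sequenced with a stranded mRNA kit. The authors quantified reads with Salmon against Ensembl transcripts (GRCm38), and the deposited tables hold, per transcript, an estimated count, the TPM and an effective length. The members, gene lists and tests were chosen with earlier results of these data known. Transcripts were matched without version to GENCODE M21 (116622 of 118783, 98.2%) and unmatched ones, with 0.669% to 0.708% of reads, were not used. The methods and the tables name different Ensembl releases.

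Estimated counts were summed per gene, rounded and tested with DESeq2 1.42.0 (Wald test, R 4.3.3) in 1 fit of the 12 libraries, with the transcript length as offset, for the 15473 genes that reached 10 reads in 3 or more libraries. P-values were adjusted by Benjamini-Hochberg over all genes (threshold 0.05). Genes that DESeq2 set aside as outliers, with no p-value, left 15426. Normalised counts are estimated counts divided by DESeq2's factors. Intervals are at 95%, from the SE. The script was tested on simulated data. Alternatives were edgeR 4.0.16 (quasi-likelihood, TMM), TMM in DESeq2, no filter beyond 1 read in total (24201 genes), at least 50 reads in every library (11722 genes), no length offset, the 2 groups alone, the replicate number as a block, and each tumour left out. Named genes were the 9 members, their ligand and receptor relatives, genes of the inducer and enzyme lists with an unadjusted p under 0.05 against ctrl or a role for a described member, markers of cell types beside the result they move with, and the 3 genes most like each member. Libraries of a group differed by chi-square of 13.1 to 56.0 per degree of freedom, so none was a copy. Correlations and plots used Python 3.11.15, numpy 2.4.6, pandas 2.3.3, scipy 1.17.1 and matplotlib 3.10.9.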

Additional observations from a re-analysis of the deposited data

How the results depend on the processing

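For the 6 contrasts, 0 chemokines were called under each alternative, except that 2 were called between miR-183-5p-EVs and miR-142-5p-EVs without miR-142-5p tumour 1 (0 to 2 over the left-out tumours). For the receptors and remaining ligands, 0 were called under each. The tumour numbers were not shown to pair the samples: deviations of same-numbered tumours correlated at -0.0675 on average, only 2 of 12 tumours correlated best with their own number, and with the number as a replicate block 0 chemokines were called. With 3 tumours a group, standard errors of the members against ctrl ran from 0.18 (Cxcl16) to 0.78 (Cxcl14) on the log2 scale. Correlations passed in 5 pairs, in 2 without the 2 farthest tumours and in 0 centred within groups, where orderings are few but a pair could have passed. With coding transcripts alone (chosen after seeing the data), 3 genes kept their rank in TPM. Not called in the first place, these log2 fold changes took both signs, and the cause was not tested.

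With 1 tumour left out at a time, against ctrl with miR-142-5p-EVs, Cxcl1 ranged from -0.78 to 0.11, Cxcl2 from -0.66 to 0.17, Cxcl3 from -0.96 to 0.13, Cxcl12 from -0.49 to 1.52, Cxcl14 from -1.02 to 0.49, Cxcl16 from -0.051 to 0.28 and Cxcr5 from -2.09 to 3.48. With miR-183-5p-EVs, Cxcl5 ranged from -0.12 to 0.98, Cxcl10 from -0.63 to 0.16 and Cxcl16 from -0.14 to 0.069. With miR-222-3p-EVs, Cxcl1 ranged from -0.47 to 0.27, Cxcl2 from -0.44 to 0.36, Cxcl3 from -0.77 to 0.35, Cxcl5 from -0.51 to 0.51, Cxcl9 from -0.54 to 0.29, Cxcl10 from -0.64 to 0.13 and Cxcl12 from -0.64 to 0.0079. Between miR-183-5p-EVs and miR-142-5p-EVs, Cxcl9 ranged from -0.082 to 0.46, Cxcl10 from -0.042 to 0.46, Cxcl12 from -1.25 to 0.76 and Cxcl16 from -0.30 to 0.024. Between miR-183-5p-EVs and the miR-222-3p-EV group, Cxcl5 ranged from -0.23 to 1.13, Cxcl9 from -0.57 to 0.29, Cxcl10 from -0.28 to 0.31 and Cxcl14 from -0.43 to 0.44. Between miR-142-5p-EVs and the miR-222-3p-EV group, Cxcl1 ranged from -0.78 to 0.32, Cxcl2 from -0.73 to 0.34, Cxcl3 from -0.95 to 0.57, Cxcl5 from -1.07 to 0.11, Cxcl9 from -0.76 to 0.073, Cxcl10 from -0.37 to 0.053, Cxcl12 from -0.29 to 1.72, Cxcl16 from -0.24 to 0.090 and Cxcr5 from -0.56 to 5.32.

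Against ctrl with miR-222-3p-EVs, Cxcl1 (-0.00070 in the fit of all tumours) was at 0.00063 with TMM factors, 0.0041 with the 50-read filter, 0.0011 by edgeR, 0.00045 with no filter, 0.0096 with no length offset and 0.020 with the replicate block. Under the block Cxcl3 was at 0.079 and Cxcl9 at -0.026, and with no length offset Cxcl9 was at -0.041. Between miR-183-5p-EVs and the miR-222-3p-EV group, Cxcl10 was at -0.0045 with no length offset.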
